A study of Drosophila melanogaster with 21 samples.

Results

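The genes described are 48 genes of the cell cycle and DNA replication, taken from the count data by their FlyBase symbols and followed in fly heads with neuronal knockdown of homologs of 3q29 genes. The identifiers of *Mcm3* and *Orc1* were not matched to the counted genes, so 46 of the 48 genes were followed, out of 17559 genes counted. All 46 passed the low-count filter that left 10558 genes for testing. The genes were grouped by role into DNA replication (10 genes counted), the G1 to S transition (6), mitotic entry (8), the spindle and cytokinesis (12), anaphase and the spindle checkpoint (7), and the DNA damage checkpoint (3). The 27 genes of mitotic entry, spindle and anaphase are called mitosis genes below.

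A dividing cell copies its DNA in S phase and separates the copies in mitosis. Cyclins bind and activate cyclin-dependent kinases, and different pairs drive entry into S phase and into mitosis. Most cells of the adult fly head, including neurons and photoreceptors, have left the cell cycle, while some cell cycle proteins also act in cells that no longer divide, and the ovary carries large maternal stores of cell cycle RNAs.

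RNA was sequenced from heads of F1 female flies reared at 25 °C, with 3 biological replicates in each of 7 groups, and 21 libraries in all. Every group carried the pan-neuronal driver *Elav-GAL4* in a *w1118* background, controls included, so that RNAi was driven in neurons while RNA came from the whole head. The RNAi lines of the Vienna Drosophila Resource Center were 41136 for *dlg1* and 26577 for *Fsn*, both of the GD collection, and 107112 for *Cbp20*, of the KK collection. The pairwise knockdowns *Cbp20/dlg1* and *Cbp20/Fsn* carried the *Cbp20* line together with the *dlg1* or the *Fsn* line, and so both backgrounds. The column headers of the *Cbp20/Fsn* libraries give another number for the *Fsn* line than the sample labels do, and the labels were followed. Control GD flies came from the *w1118* stock of the GD collection without an RNAi insertion, and Control KK flies from line 60100 with *y1 w1118*. Each knockdown rests on 1 RNAi line, and each library is a pool of heads. *dlg1* and *Fsn* knockdowns were compared with Control GD and all knockdowns of *Cbp20* with Control KK. The pairwise knockdowns were also compared with *Cbp20* knockdown alone, and the controls with each other. Comparisons with the same control share its libraries, as do both comparisons of *Cbp20/Fsn* flies.

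The depth was 17712938 to 28759171 gene counts per library (median 22289840). Levels are given as CPM (counts scaled to library size, TMM-normalized), and 3 counts, taken as the floor of detection, came to between 0.104 and 0.169 CPM. The edgeR quasi-likelihood test was run over all 10558 genes. A gene was called when its log2 fold change lay above 1 or below −1 and its FDR, the false discovery rate after Benjamini-Hochberg adjustment, was under 0.05. SE denotes the standard error of a log2 fold change. *Cbp20* was lower by 1.45 on the log2 scale in its own knockdown (FDR = 4.75e-09, edgeR), and *Fsn* fell by 0.56 in its own (FDR = 7.2e-05). In *Cbp20/Fsn* flies, *Cbp20* fell by 1.23 (FDR = 2.03e-08, edgeR) and *Fsn* by 0.53 (FDR = 0.000161). The log2 fold change of *dlg1* in its knockdown was −0.19 (FDR = 0.316, edgeR), which did not pass. In *Cbp20/dlg1* flies it was −0.35 against Control KK (FDR = 0.0238, edgeR) and −0.45 against *Cbp20* (FDR = 0.00178). *dlg1* was also lower in *Fsn* flies, where it was not targeted (−0.31, FDR = 0.0209, edgeR). Neuron and photoreceptor markers were abundant in every library, with summed levels of at least 3396.8 and 77088 CPM. The sources do not say whether the replicates came from separate crosses, and the p-values measure the spread between these pools of heads.

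With these thresholds, called members were found in *Cbp20/Fsn* flies only. Against Control KK, 10 of the 46 members were called, all of them higher, while 2.12% of all genes tested were called higher. These were *CycE*, *CycA*, *CycB*, *CycB3*, *Cdk1*, *stg*, *aurA*, *tum*, *mad2* and *lok*, and 8 of the 10 are mitosis genes. The members were chosen with earlier results of these data known. From the same experiment, the paper names *aurA*, *Cdk1*, *lok* and *CycE* among the cell cycle genes dysregulated in *Cbp20/Fsn* flies. The share of members called can therefore in part reflect that choice. Against *Cbp20* knockdown alone, 9 of the 46 members were called, again all higher, beside 2.85% of all genes. These were *Mcm2*, *Mcm5*, *PCNA*, *RnrL*, *RnrS*, *CycA*, *stg*, *aurA* and *mad2*, and 5 of the 9 are replication genes. The comparisons share 4 called genes, which are 40.0% of the first list and 44.4% of the second, and they also share the *Cbp20/Fsn* libraries. With no fold threshold, 15 members were higher at an FDR under 0.05 against Control KK (8.63% of all genes) and 16 against *Cbp20* (17.4% of all genes). No member was lower in either comparison. The median log2 fold change of the members was 0.94 against Control KK, where the median over all genes was 0.002, and 0.66 against *Cbp20*.

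These calls rested on 2 of the 3 *Cbp20/Fsn* libraries. *Cbp20/Fsn* libraries 1 and 3 lay above all 3 Control KK libraries for 41 of the 46 members (89.1%), compared with 27.3% of all genes tested. *Cbp20/Fsn* library 2 lay below all 3 Control KK libraries for 32 of the 46 members (69.6%), compared with 35.4% of all genes. In 39 members (84.8%) the level was highest in library 3, intermediate in library 1 and lowest in library 2. This order held in 18.8% of all genes. All 3 *Cbp20/Fsn* libraries lay above all 3 Control KK libraries for 8 members (17.4%), and the same was true of 18.9% of all genes. They lay above all 3 *Cbp20* libraries for 4 members (8.7%), compared with 25.8% of all genes. Without *Cbp20/Fsn* library 2, 28 members were called against Control KK. Without library 3 only *aurA* was called, and without library 1 the count was 7. Leaving out 1 Control KK library also lowered the count, to 2 without library 1 or library 2 and to 3 without library 3. Against *Cbp20*, the count was 17 without *Cbp20/Fsn* library 2 and 0 without library 3. It was 6 without *Cbp20/Fsn* library 1, 2 without *Cbp20* library 1 and 6 without *Cbp20* library 2. The share of all genes called in these fits was not counted, so these counts have no background beside them.

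**Figure D1:**
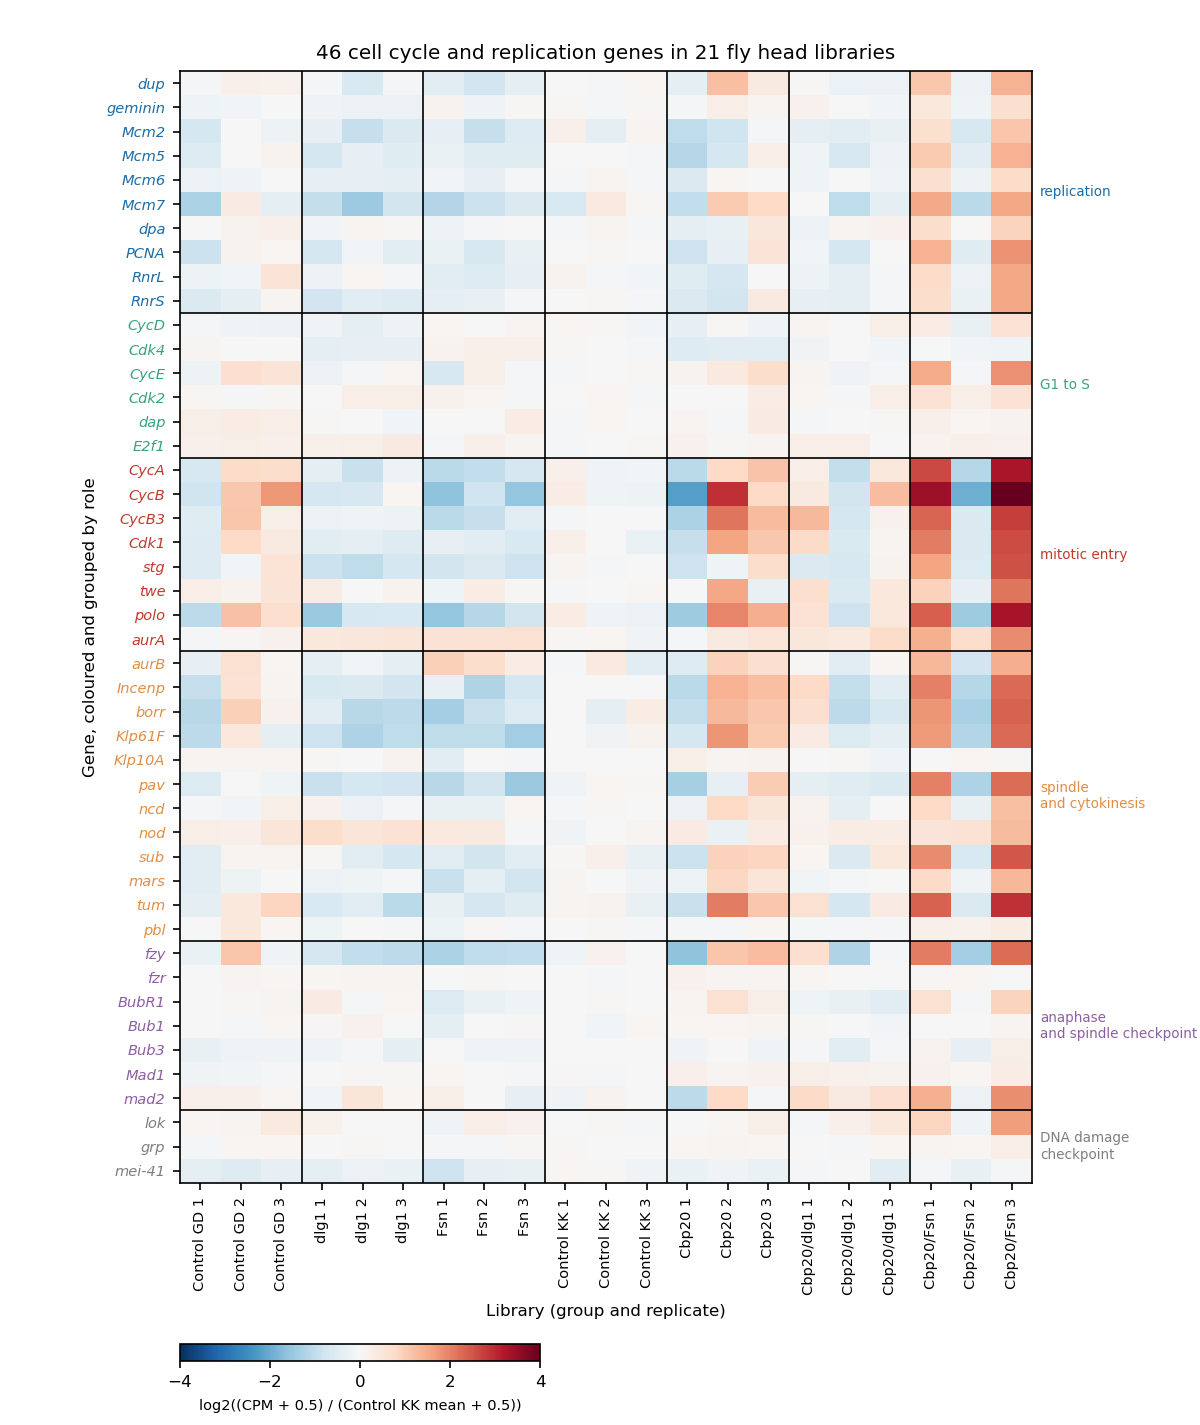
Level of the 46 counted members in each of the 21 libraries, as the log2 ratio of CPM to the mean of Control KK with 0.5 CPM added to both. Rows are genes coloured by role and columns are libraries grouped by genotype. Columns *Cbp20/Fsn* 1 and 3 are red for most replication and mitosis genes while *Cbp20/Fsn* 2 is pale or blue, and *Cbp20* 1 and 2 differ in the same way for the mitosis genes.

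DNA replication genes were modestly higher in *Cbp20/Fsn* libraries 1 and 3. Their summed level was 63.0, 64.2 and 62.8 CPM in the 3 Control KK libraries and 116, 51.3 and 151 CPM in the *Cbp20/Fsn* libraries. Libraries 1 and 3 lay above the controls and library 2 below them. The same sum was 44.1, 69.7 and 77.2 CPM in *Cbp20* flies and 49.4, 62.5 and 67.5 CPM in Control GD. None of the 10 genes was called against Control KK by edgeR, with 8 at an unadjusted p under 0.05 and 1 (*RnrL*) at an FDR under 0.05, and DESeq2 called 1 (*PCNA*). Against *Cbp20*, 5 of the 10 were called and the median log2 fold change was 0.89. In bulk RNA of whole heads, more cells of a type and more RNA per cell cannot be told apart.

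*PCNA*, the sliding clamp that holds DNA polymerase on its template, was measured at 1.53, 2.33 and 4.65 CPM in *Cbp20* libraries 1 to 3 and at 8.88, 2.08 and 11.9 CPM in *Cbp20/Fsn* libraries 1 to 3. The groups overlapped, because *Cbp20/Fsn* library 2 lay inside the *Cbp20* range. Its log2 fold change was 1.44 (SE 0.456, FDR = 0.0235, edgeR). *Mcm5*, a subunit of the MCM helicase that opens DNA at the fork, was at 1.44, 2.13 and 4.65 CPM in *Cbp20* and 8.40, 2.65 and 10.6 CPM in *Cbp20/Fsn* flies, with the same overlap. Its log2 fold change was 1.42 (SE 0.389, FDR = 0.0108, edgeR). The helicase subunit *Mcm2* was called with a log2 fold change of 1.25 (FDR = 0.0165, edgeR). The subunits *Mcm6* and *dpa* (the fly Mcm4) passed the FDR but not the fold threshold, with 0.62 and 0.64, and *Mcm7* did not pass (0.57, FDR = 0.473). *Mcm7* was also uneven within *Cbp20* flies, at 1.71, 8.40 and 7.05 CPM.

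*RnrL* and *RnrS* encode the large and small subunits of ribonucleotide reductase, the enzyme that makes the nucleotides of DNA. *RnrL* (chromosome 2L, 10325026 to 10327943, minus strand, in the BDGP6.54 annotation) was at 6.11, 5.20 and 5.06 CPM in Control KK, 3.76, 3.26 and 5.44 CPM in *Cbp20*, and 9.44, 4.60 and 16.8 CPM in *Cbp20/Fsn* flies. *Cbp20/Fsn* library 2 lay below Control KK and within the *Cbp20* range. The log2 fold change of *RnrL* was 1.32 against *Cbp20* (SE 0.315, FDR = 0.00454, edgeR) and 0.91 against Control KK (FDR = 0.0482). *RnrS* was at 4.86, 4.32 and 9.75 CPM in *Cbp20* and 12.5, 6.05 and 22.7 CPM in *Cbp20/Fsn* flies, a log2 fold change of 1.14 (SE 0.338, FDR = 0.0169, edgeR). The licensing factor *dup* (fly Cdt1) and its inhibitor *geminin* were not called in any comparison. *geminin* had the highest level per length among the replication genes, with 13.1 CPM per kb of exon in the controls, and it was the least variable of them, with a within-group SD of 0.20 on the log2 scale.

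**Figure D2:**
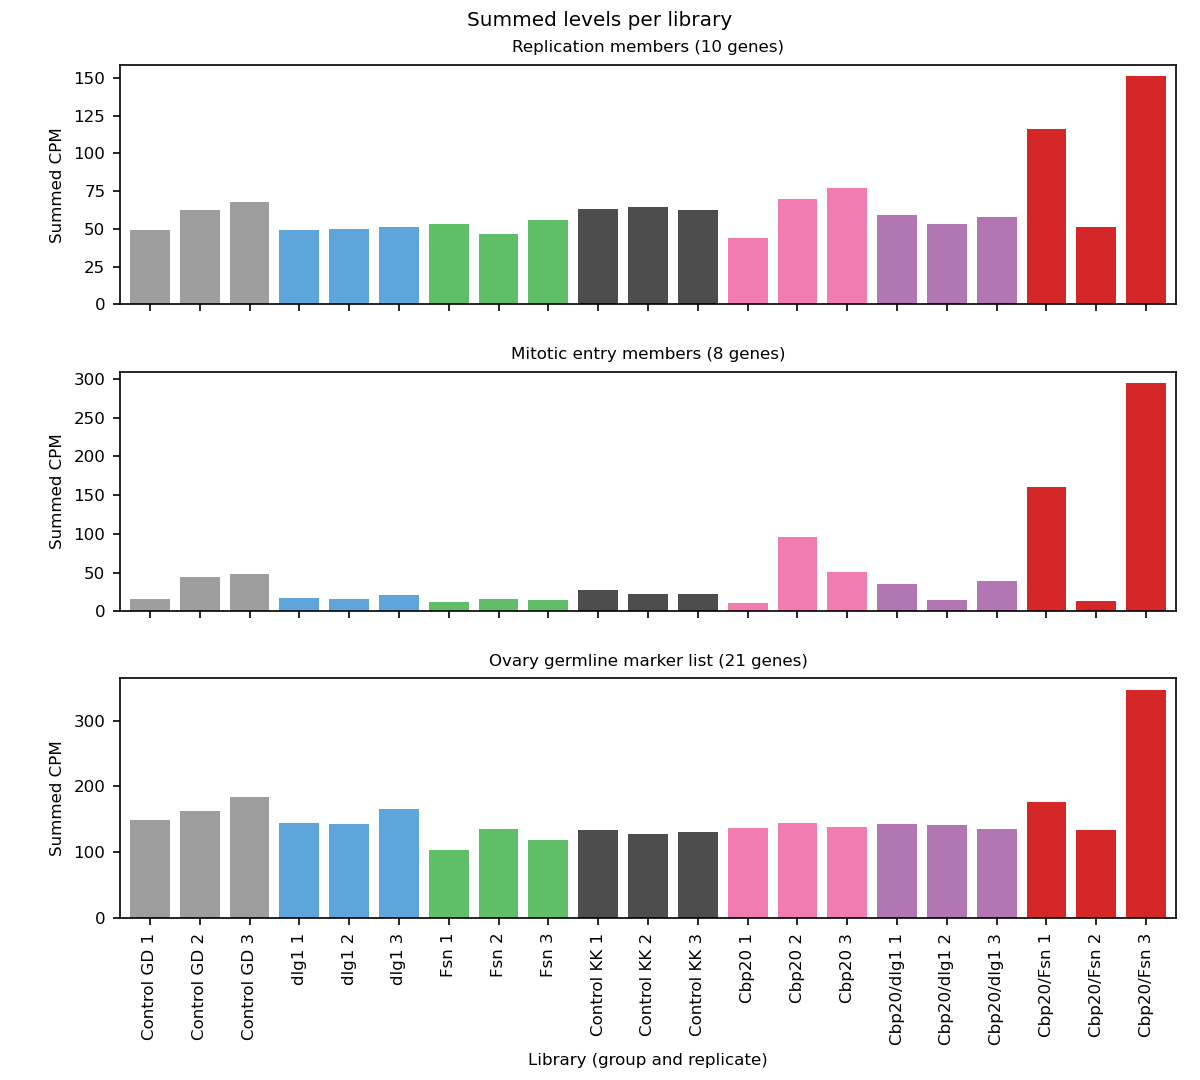
Summed level in CPM in each library for the 10 replication genes, the 8 mitotic entry genes and the 21 ovary germline marker genes, with 1 bar per library and bars starting at 0. The mitotic entry genes reach 295 CPM in *Cbp20/Fsn* 3, 161 CPM in *Cbp20/Fsn* 1 and 96.1 CPM in *Cbp20* 2, while the germline markers reach 347 CPM in *Cbp20/Fsn* 3 and 144 CPM in *Cbp20* 2, most of the latter from *grk*, *orb*, *gcl* and *ovo*.

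Among the G1 to S genes, the largest difference was that of *CycE*, the cyclin that pairs with Cdk2 for entry into S phase. *CycE* was at 4.38, 4.74 and 4.79 CPM in Control KK and 13.9, 4.42 and 17.9 CPM in *Cbp20/Fsn* flies, where library 2 lay within the control range. It was called against Control KK (log2 fold change 1.38, SE 0.348, FDR = 0.0103, edgeR). *Cdk2* itself had a smaller but more even difference, with 7.75, 7.98 and 7.12 CPM in Control KK and 11.7, 9.19 and 11.7 CPM in *Cbp20/Fsn* flies. These groups did not overlap, and the log2 fold change was 0.51 (FDR = 0.00473, edgeR). *CycD*, the *Cdk4* partner, *dap*, the fly inhibitor of Cyclin E and Cdk2, and *E2f1*, the S phase transcription factor, had log2 fold changes of 0.25, 0.16 and 0.18 and did not pass the FDR. *E2f1* was the highest of these genes per length, with 13.5 CPM per kb of exon in the controls.

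*Cdk4*, the kinase partner of Cyclin D, followed another pattern than the other members. Its level was 27.1, 25.8 and 25.5 CPM in Control KK and 18.2, 18.9 and 18.9 CPM in *Cbp20* flies. All 3 *Cbp20* libraries lay below all 3 controls, and *Cdk4* fell by 0.48 on the log2 scale (SE 0.0571, FDR = 3e-06, edgeR). It was at 28.1, 25.9 and 26.2 CPM in Control GD and at 20.1, 20.7 and 20.6 CPM in *dlg1* flies. These groups did not overlap either, and *Cdk4* fell by 0.38 (SE 0.0571, FDR = 0.000131, edgeR). Neither decrease reached the fold threshold.

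With both genes knocked down, *Cdk4* was at 23.9, 26.4 and 24.3 CPM in *Cbp20/dlg1* flies, higher than in *Cbp20* flies by 0.41 on the log2 scale (FDR = 2.1e-05, edgeR). The test of whether the *dlg1* effect differed with and without *Cbp20* knockdown gave a log2 difference of 0.79 (SE 0.0811, FDR = 1.26e-06, edgeR). Against Control KK, the difference was −0.07 in *Cbp20/dlg1* flies (FDR = 0.441, edgeR) and −0.08 in *Cbp20/Fsn* flies (FDR = 0.368). *Fsn* flies had 28.8, 30.2 and 30.0 CPM, or 0.15 on the log2 scale above Control GD (FDR = 0.0405, edgeR). Exons of *Cdk4* overlap an antisense RNA gene on the other strand, and the strand setting of the counting is not given in the sources used here.

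**Figure D3:**
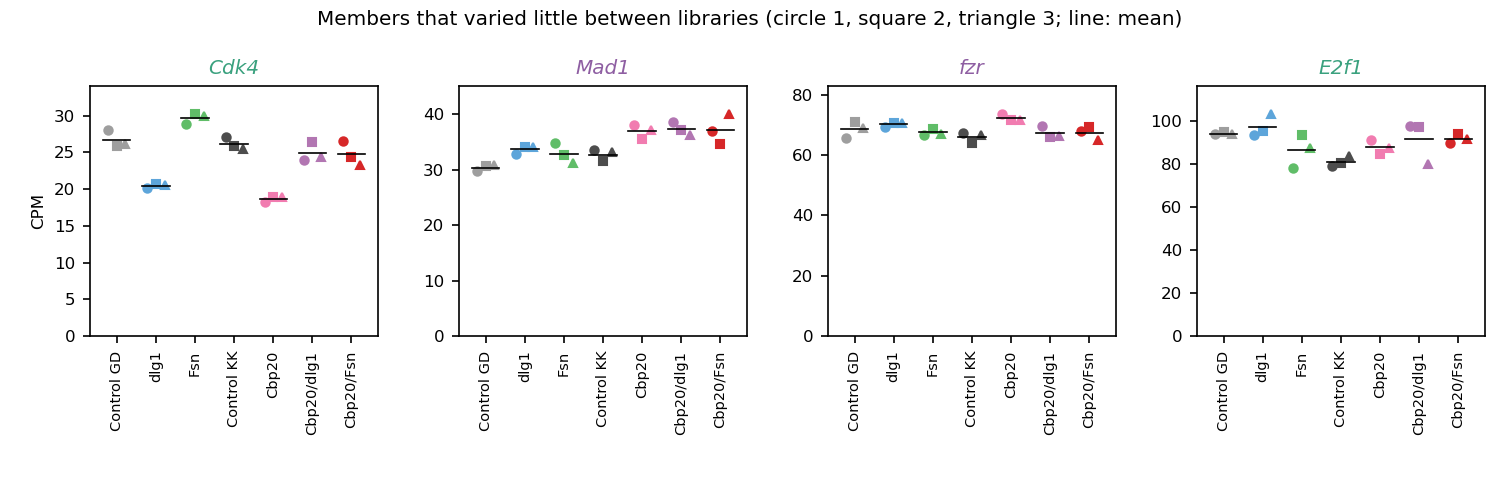
Level in CPM of *Cdk4*, *Mad1*, *fzr* and *E2f1* in each library, with 1 point per library and the group mean as a bar, on axes that start at 0. *Cdk4* is lowest in the *Cbp20* and *dlg1* groups (18.2 to 20.7 CPM) and lies between 23.3 and 30.2 CPM in the other groups, and its replicates lie close together.

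The 8 mitotic entry genes had the widest differences. Their summed level was 27.7, 22.7 and 22.3 CPM in Control KK and 161, 12.6 and 295 CPM in *Cbp20/Fsn* flies, so that libraries 1 and 3 lay far above the controls and library 2 below them. Of the 8, 6 were called against Control KK, and their median log2 fold change was 2.31. *CycB*, the mitotic cyclin, was at 7.08, 4.97 and 4.87 CPM in Control KK and 65.9, 1.10 and 139 CPM in *Cbp20/Fsn* flies. Relative to the control mean, libraries 1 and 3 were at 11.7 and 24.6 times the level and library 2 at 0.195 times. The fitted log2 fold change was 3.61 (SE 1.06, FDR = 0.0252, edgeR), the largest among the members in this comparison. Each sequencing batch kept this order, with *CycB* at 67.8, 66.9 and 68.8 CPM in the 3 batches of *Cbp20/Fsn* library 1, 1.72, 1.15 and 0.834 CPM in those of library 2 and 146, 144 and 143 CPM in those of library 3. The batches of library 2 held 9, 6 and 10 *CycB* counts.

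*CycA*, a cyclin of G2 and mitosis (chromosome 3L, 11826719 to 11833578, minus strand), was at 6.84, 5.29 and 5.37 CPM in Control KK and 39.3, 2.39 and 60.7 CPM in *Cbp20/Fsn* flies. Library 2 again lay below every control. *CycA* was called against Control KK (log2 fold change 2.55, SE 0.695, FDR = 0.0166, edgeR) and against *Cbp20* (1.94, SE 0.663, FDR = 0.0344). *CycB3*, a further mitotic cyclin, was called with a log2 fold change of 2.23 (FDR = 0.0497, edgeR), and *Cdk1*, the kinase these cyclins activate, with 2.39 (FDR = 0.0436). In both genes library 2 lay below all controls.

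*stg*, the Cdc25 phosphatase that activates Cdk1 (chromosome 3R, 29251826 to 29255800, minus strand), was at 3.56, 3.05 and 3.19 CPM in Control KK, 1.62, 2.85 and 5.63 CPM in *Cbp20* and 10.8, 2.08 and 21.3 CPM in *Cbp20/Fsn* flies. Library 2 lay below Control KK and within the *Cbp20* range. *stg* was called in both comparisons, with log2 fold changes of 1.80 (SE 0.530, FDR = 0.0261, edgeR) and 1.77 (SE 0.528, FDR = 0.0177). The germline Cdc25 phosphatase *twe* (1.44, FDR = 0.0807, edgeR) and *polo*, the Polo kinase (2.61, FDR = 0.0536), did not pass the FDR against Control KK.

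*aurA*, the Aurora A kinase of centrosomes (chromosome 3R, 11963124 to 11964826, plus strand), was the only called member with all 3 *Cbp20/Fsn* libraries above every library of both reference groups. It was at 4.87, 2.78 and 6.91 CPM in *Cbp20/Fsn* flies, 1.59, 1.60 and 1.32 CPM in Control KK and 1.44, 2.06 and 2.30 CPM in *Cbp20* flies. Its log2 fold change was 1.69 against Control KK (FDR = 0.000104, edgeR) and 1.32 against *Cbp20* (FDR = 0.000448). *aurA* also differed from the other mitotic entry genes in *Fsn* flies, where the level of 2.5, 2.47 and 2.56 CPM lay above the 1.44, 1.57 and 1.76 CPM of Control GD. Its log2 fold change there was 0.65 (SE 0.252, FDR = 0.0475, edgeR). The *aurA* level also lay above all Control GD libraries in *dlg1* flies (2.19, 2.24 and 2.29 CPM). In *Cbp20/dlg1* flies (2.23, 2.14 and 2.85 CPM) it lay above all Control KK libraries. Neither of these differences passed the FDR. Exons of *aurA* overlap those of *CG12213* on the other strand, and those of *lok* overlap *vls* on the other strand, with the same limit as for *Cdk4*.

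**Figure D4:**
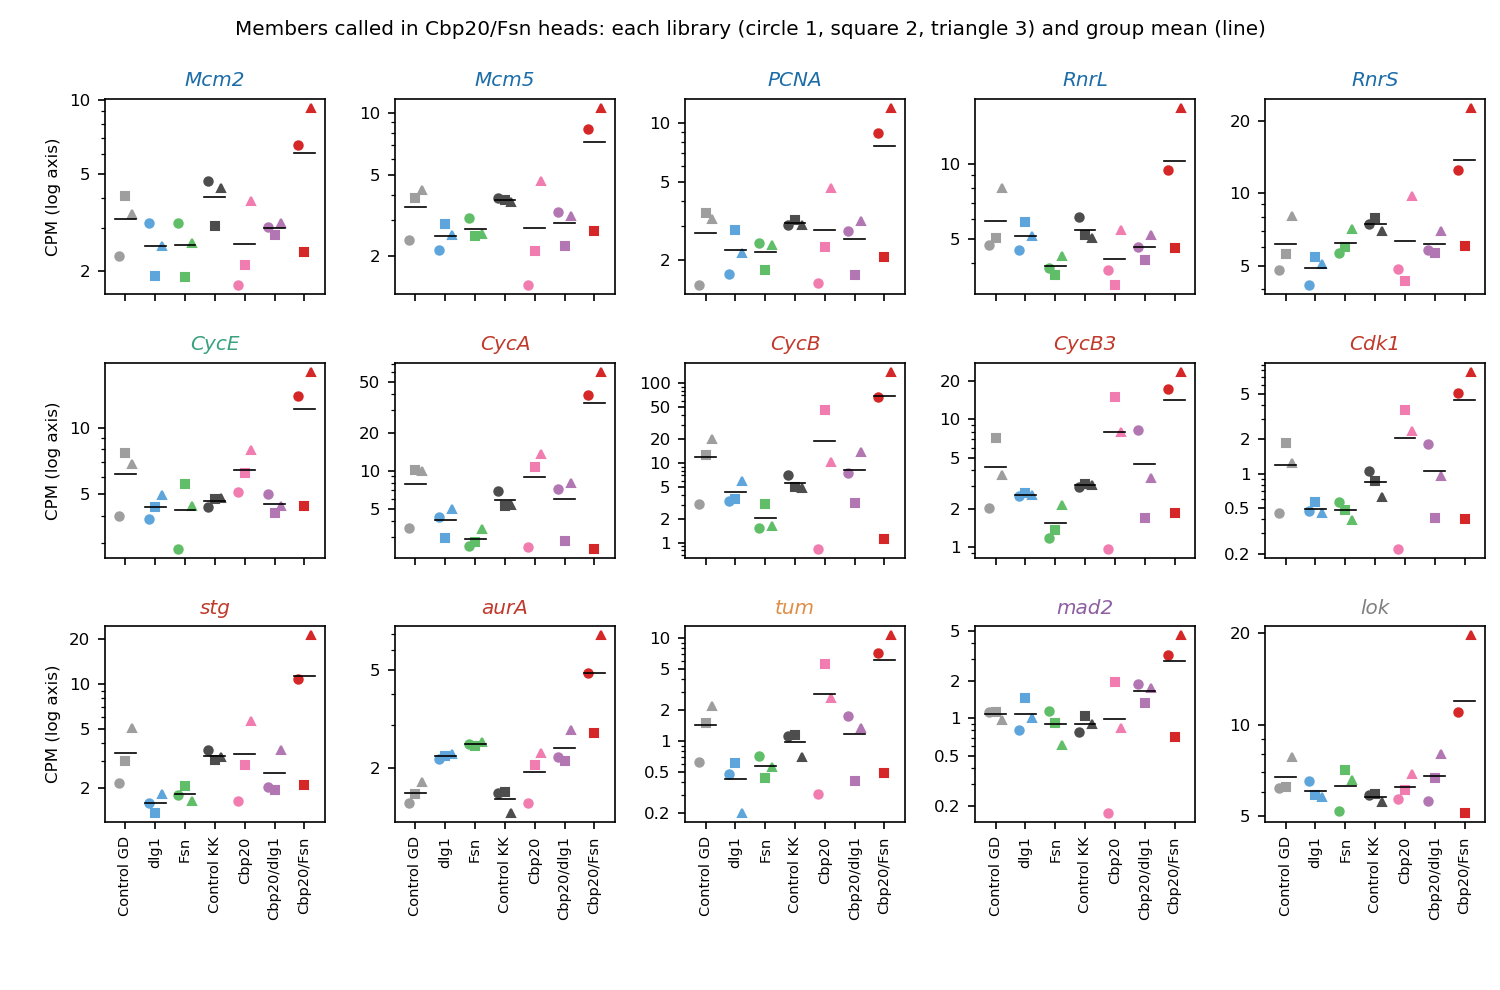
Level in CPM on a log axis of the 15 members called in *Cbp20/Fsn* flies against Control KK, against *Cbp20* or both, with 1 point per library coloured by group. In most of the genes the point of *Cbp20/Fsn* 2 lies among or below the controls while *Cbp20/Fsn* 1 and 3 lie above them, and *aurA* has all 3 points above Control KK and *Cbp20*.

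Of the 12 spindle and cytokinesis genes, 1 was called in *Cbp20/Fsn* flies against Control KK (*tum*). None was called against *Cbp20* by edgeR or DESeq2, and 3 (*nod*, *pav* and *pbl*) had an unadjusted p under 0.05 there. *tum*, a subunit with *pav* of the centralspindlin complex of the cleavage furrow, was at 1.11, 1.14 and 0.701 CPM in Control KK and 7.17, 0.486 and 10.7 CPM in *Cbp20/Fsn* flies. Library 2 lay below the controls, and the log2 fold change was 2.64 (SE 0.824, FDR = 0.0338, edgeR). *pav* was at 6.43, 0.221 and 7.63 CPM against 1.06, 1.32 and 1.25 CPM, and did not pass the FDR (1.97, FDR = 0.0738, edgeR).

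The Aurora B kinase gene *aurB* and its partners *Incenp* and *borr*, with the kinesin genes *Klp61F* and *sub*, had log2 fold changes between 1.47 and 2.63, none with an FDR under 0.05. Levels were low in this group, with 0.188 CPM per kb of exon for *Klp61F* and 0.160 for *sub* in the controls, and each of these genes had 1 library without counts. *nod*, a kinesin-like gene known for its part in female meiosis, was more even, at 2.02, 2.33 and 2.49 CPM in Control KK and 3.49, 3.62 and 6.23 CPM in *Cbp20/Fsn* flies. These groups did not overlap, and the log2 fold change was 0.95 (SE 0.223, FDR = 0.00595, edgeR), just short of the fold threshold. *Klp10A*, a kinesin that shortens microtubules, had the highest level per length of the spindle genes (19.6 CPM per kb), and its log2 fold change was 0.04 (FDR = 0.776, edgeR).

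Anaphase and spindle checkpoint genes split in their level and in their spread. *fzy* (fly Cdc20), an activator of the anaphase-promoting complex in mitosis, was at 1.35, 1.82 and 1.56 CPM in Control KK and 8.07, 0.309 and 9.21 CPM in *Cbp20/Fsn* flies, and did not pass the FDR (1.89, FDR = 0.126, edgeR). *fzr* (fly Cdh1), the activator that acts in G1 and in cells that have left the cycle, was at 67.2, 63.9 and 66.6 CPM in Control KK and 68.1, 69.3 and 65.0 CPM in *Cbp20/Fsn* flies. It was the highest of these genes per length (24.1 CPM per kb) and the least variable of all members, with a within-group SD of 0.04 on the log2 scale.

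*mad2*, a spindle checkpoint protein that restrains fzy, was at 0.770, 1.05 and 0.895 CPM in Control KK, 0.175, 1.96 and 0.833 CPM in *Cbp20* and 3.23, 0.707 and 4.61 CPM in *Cbp20/Fsn* flies. Library 2 lay below the controls. *mad2* was called against both references, with log2 fold changes of 1.65 (SE 0.555, FDR = 0.0479, edgeR) and 1.47 (SE 0.542, FDR = 0.0476). Its partner *Mad1* was much steadier and was slightly higher than in Control KK in all knockdowns of *Cbp20*, with log2 fold changes of 0.18 in *Cbp20* (FDR = 0.0275, edgeR), 0.19 in both pairwise knockdowns (FDR = 0.0276 in each).

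The checkpoint kinase *BubR1* passed the FDR alone (0.56, FDR = 0.049, edgeR). *Bub1* and *Bub3* had log2 fold changes of 0.03 and 0.04. Of the DNA damage checkpoint genes, *lok* (fly Chk2) was at 5.87, 5.93 and 5.57 CPM in Control KK and 11, 5.13 and 19.7 CPM in *Cbp20/Fsn* flies, with a log2 fold change of 1.04 (SE 0.290, FDR = 0.0187, edgeR). *grp* (fly Chk1), at 22.7 CPM per kb, and the ATR kinase *mei-41* had log2 fold changes of 0.16 and −0.14 and did not pass the FDR.

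**Figure D5:**
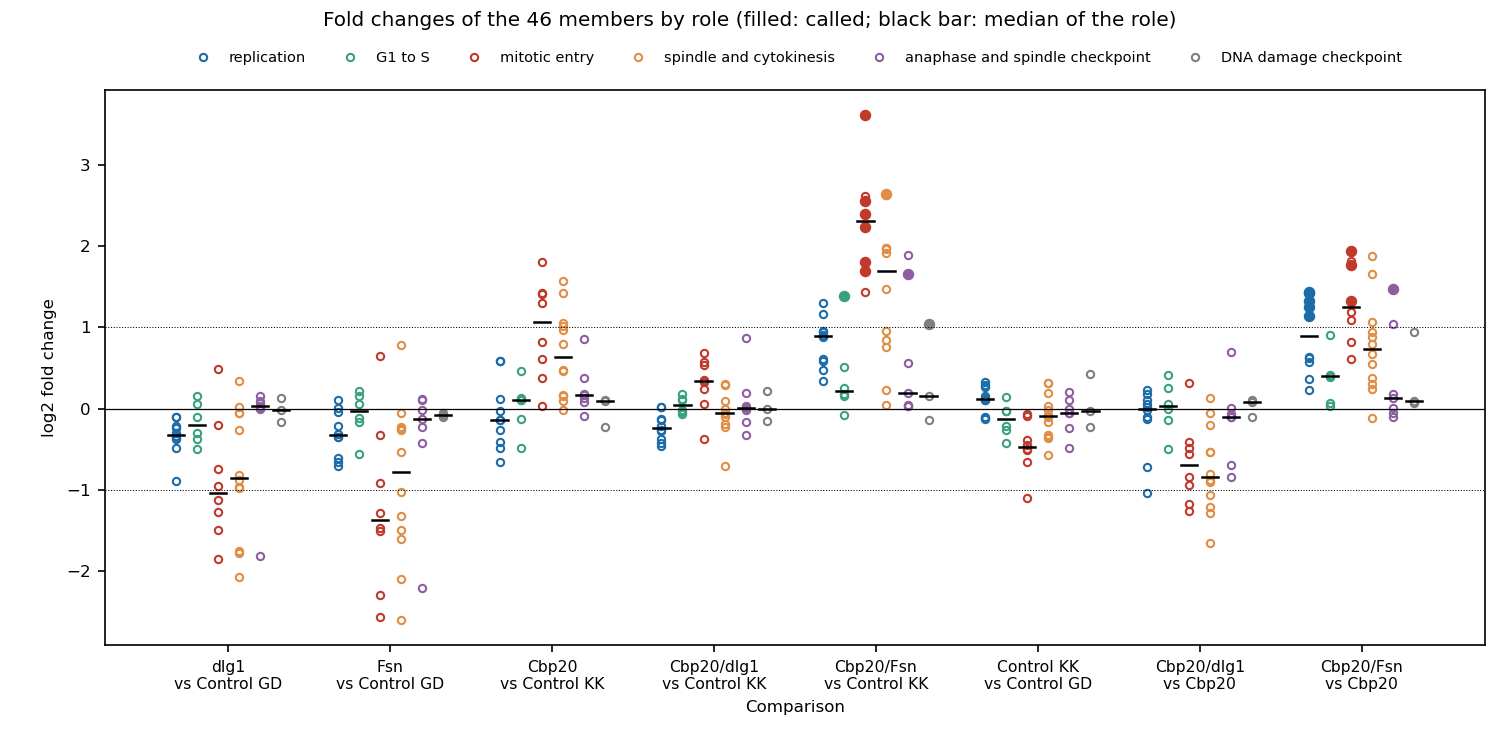
Log2 fold change of the 46 members in the 8 comparisons, by role, with filled points for called genes and a bar at the median of each role. In *Cbp20/Fsn* flies against Control KK the medians are 2.31 for mitotic entry, 1.70 for spindle and cytokinesis and 0.90 for replication, and filled points occur in the *Cbp20/Fsn* comparisons only.

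Replicates of 1 group differed more for these genes than for most. The within-group SD on the log2 scale had a median of 0.42 over the 46 members, 0.12 over all genes tested, 0.45 for replication, 0.99 for mitotic entry and 0.12 for the G1 to S genes. It exceeded 1 in 7 members, all mitosis genes, and was largest for *CycB* at 1.76. It was under 0.2 in 13 members. How many of all genes lay beyond these limits was not counted. The highest of the 21 libraries was *Cbp20/Fsn* library 3 in 37 members (80.4%), against 7.78% of all genes.

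The same unevenness occurred without a difference between groups. *Cbp20* libraries 2 and 3 both lay above *Cbp20* library 1 for 33 members (71.7%, against 30.1% of all genes). *CycB* was at 0.832, 45.7 and 10.2 CPM in these 3 libraries, a range that spans all of the Control KK values. In 17 members *Cbp20* library 2 was more than 3 times as high as library 1, and 15 of these are mitosis genes while 2 are replication genes. How many of all genes differed as much was not counted. Relative to the Control KK mean, the median ratio in *Cbp20* libraries 1 to 3 was 0.372, 3.81 and 2.07 for mitotic entry and 0.654, 0.779 and 1.27 for replication. *Cbp20* library 2 was thus high for the mitosis genes and not for most replication genes, whereas *Cbp20/Fsn* libraries 1 and 3 were high for both, with ratios of 5.83 and 8.48 for mitotic entry and 1.70 and 2.78 for replication. In Control GD, libraries 2 and 3 lay above library 1 for 36 members (78.3%, against 33.2% of all genes), and *CycB* was at 3.07, 12.6 and 19.9 CPM. In *Cbp20/dlg1* flies, libraries 1 and 3 lay above library 2 for 30 members (65.2%, against 30.2%).

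The individual knockdowns and *Cbp20/dlg1* flies had no called member. In *dlg1* flies, edgeR called 0 of 46 members (1.96% of all genes) and DESeq2 also called 0, while 4 had an unadjusted p under 0.05. How many of all genes had an unadjusted p under 0.05 was not counted in any comparison, so such counts have no background. *Cdk4* and *dap* were lower at an FDR under 0.05 (9.26% of all genes). The mitotic entry sum was 17.4, 16.4 and 21.5 CPM in *dlg1* and 15.9, 44.0 and 48.3 CPM in Control GD, so the *dlg1* libraries were close to the lowest control. In *Fsn* flies edgeR called 0 members (2.41% of all genes) and DESeq2 0, with 7 at an unadjusted p under 0.05. *Cdk4* and *aurA* were higher, and *Klp10A* (−0.26, FDR = 0.0151, edgeR) and *pbl*, a gene of cytokinesis (−0.25, FDR = 0.0493), were lower at an FDR under 0.05, where 38.2% of all genes passed. The mitotic entry sum in *Fsn* flies was 12.2, 15.4 and 14.9 CPM, below all 3 libraries of Control GD.

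In *Cbp20* flies, edgeR called 0 members (3.24% of all genes) and DESeq2 0, with 3 at an unadjusted p under 0.05. These 3 were *Cdk4*, *Mad1* and *fzr* (0.13, FDR = 0.0356, edgeR), which also passed the FDR (21.6% of all genes). In *Cbp20/dlg1* flies, the counts were 0 by edgeR (2.03% of all genes), 0 by DESeq2 and 3 at an unadjusted p under 0.05, and *Mad1* alone passed the FDR (13.1% of all genes). *Cbp20/dlg1* against *Cbp20* gave 0 by edgeR (4.35% of all genes), 0 by DESeq2 and 4 at an unadjusted p under 0.05. There *Cdk4* was higher and *BubR1* lower (−0.69, FDR = 0.0108, edgeR) at an FDR under 0.05 (32.2% of all genes). Control KK against Control GD gave 0 by edgeR (3.36% of all genes), 0 by DESeq2 and 3 at an unadjusted p under 0.05. *mei-41* was higher (0.43) and *dap* (−0.27) and *E2f1* (−0.22) were lower at an FDR under 0.05 (20.9% of all genes).

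The *Fsn* effect with and without *Cbp20* knockdown was compared directly, and 2 of the 46 members were called, both with the higher value in the presence of *Cbp20* knockdown (1.66% of all genes). These were *RnrL*, with a log2 difference of 1.93, and *stg*, with 2.69. Of the 46 members, 23 had an unadjusted p under 0.05 in this direction and none in the other. The share of all genes at that p was not counted, and members that vary together are not independent. This test was added after the data were seen. The same test for *dlg1* called 0 members with edgeR (4.41% of all genes), with 3 at an unadjusted p under 0.05 and only *Cdk4* at an FDR under 0.05. DESeq2 was not run for these tests.

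Other genes of the same processes were examined from a separate list of 114, of which 111 were counted and 108 tested. In *Cbp20/Fsn* flies 13 of the 108 were called higher against Control KK and 10 against *Cbp20*, beside 2.12% and 2.85% of all genes. The median log2 fold changes of the 108 were 0.24 and 0.19. Those with the lowest FDR against Control KK were *Sse*, the fly separase (1.80), *Mcm10*, a replication factor (3.18), *Rbf2*, a retinoblastoma family protein (1.40), and *scra*, the fly anillin (1.12). Against *Cbp20* they were *Rbf2* (1.91), *APC7*, a subunit of the anaphase-promoting complex (2.87), *Sse* (1.87) and *Prim2*, a primase subunit (1.07). None of the 108 was called lower in either comparison.

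Ovary germline markers moved with the members in *Cbp20/Fsn* flies. Of 21 such genes counted, 10 were called higher against Control KK and 13 against *Cbp20*, beside 2.12% and 2.85% of all genes. Their median log2 fold changes were 2.23 and 2.21. Their summed level was 127 to 134 CPM in Control KK, 137 to 144 in *Cbp20*, 136 to 143 in *Cbp20/dlg1*, 143 to 165 in *dlg1*, 104 to 136 in *Fsn*, 149 to 184 in Control GD and 134 to 347 CPM in *Cbp20/Fsn* flies. In *Cbp20/Fsn* libraries 1, 2 and 3, 10, 0 and 17 of the 21 markers exceeded 2 times the highest Control KK library. The same was true of 7 markers in Control GD library 3, 4 in *Cbp20* library 2 and 3 in *Cbp20/dlg1* library 1, and of at most 2 in each other library. How many of all genes exceeded that limit in each library was not counted. The libraries with the most such markers were also high for the members, but the reverse did not hold throughout. *Cbp20* library 3 and Control GD library 2 had 0 such markers and mitotic entry sums of 50.3 and 44.0 CPM. That sum was 22.3 to 27.7 CPM in Control KK. The part of the markers in the result was not tested.

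The defining markers differed between libraries. *dhd*, a thioredoxin of the egg, was at 3.72, 0.265 and 76.9 CPM in *Cbp20/Fsn* libraries 1 to 3, and *osk*, a determinant of the germ plasm, at 2.64, 0.0884 and 16.5 CPM. *swa* was at 5.13, 0.265 and 11.1 CPM and *AGO3* at 5.58, 1.63 and 11.3 CPM. In all 4 genes, as in *CycB*, library 3 was highest and library 2 lowest. In *Cbp20* library 2, where *CycB* was at 45.7 CPM, *bcd* was at 3.94, *swa* at 2.85 and *AGO3* at 4.08 CPM, while *osk* was at 0.103 CPM, under the floor, and *nos* was at 0. The germline genes *grk*, *orb*, *gcl* and *ovo* lay between 12.2 and 59.3 CPM in every library. Without these 4, left out after their values were seen, the summed level was 52.1, 10.5 and 203 CPM in *Cbp20/Fsn*, 6.70, 18.9 and 7.15 CPM in *Cbp20* and 21.6, 10.6 and 13.2 CPM in Control KK libraries 1 to 3. In Control GD it was 12.4, 21.1 and 45.4 CPM. *Cbp20/Fsn* libraries 1 and 3 were the highest of all, and *Cbp20* library 2 the highest of its group. Eggshell genes, made by the follicle cells of the ovary, had a summed level of 6.54 to 8.40 CPM in *Cbp20/Fsn* flies and 11 to 30.1 CPM in Control KK. It was 7.75 to 8.87 CPM in *Cbp20*, 7.38 to 8.78 in *Cbp20/dlg1*, 8.46 to 9.10 in *Fsn*, 7.27 to 8.27 in Control GD and 7.71 to 75.7 CPM in *dlg1* flies.

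Markers of neural progenitors had a summed level of 64.7 to 71.4 CPM in *Cbp20/Fsn*, 66.1 to 67.6 CPM in Control KK, 69.0 to 80.8 in *Cbp20*, 70.5 to 72.0 in *Cbp20/dlg1*, 67.6 to 73.9 in *dlg1*, 48.5 to 67.4 in *Fsn* and 64.7 to 74.0 CPM in Control GD. None of the 4 tested was called in *Cbp20/Fsn* flies. Most of this sum was *grh*. The neuroblast gene *mira* was highest in *Cbp20* library 3 (6.66 CPM), Control GD library 2 (6.52) and *Cbp20/Fsn* library 1 (5.39), and was at 0.858 CPM in *Cbp20/Fsn* library 3. It was at 1.64 to 3.15 CPM in Control KK. The neuroblast genes *dpn* (2.30 CPM), *wor* (0.929) and *ase* (0.818) were highest of all 21 libraries in *Cbp20/Fsn* library 1 and next highest in *Cbp20* library 3 (2.16, 0.588 and 0.490 CPM). In Control KK they reached at most 1.11, 0.365 and 0.0481 CPM, and in *Cbp20/Fsn* library 3 they were at 0.993, 0.0903 and 0.0452 CPM. The rest of the list, *insc* and *grh*, were at 7.17 and 54.8 CPM in *Cbp20/Fsn* library 1. They were at 7.45 and 63.4 CPM in *Cbp20* library 3. Their Control KK ranges were 7.52 to 8.45 and 54.9 to 55.7 CPM. Of the list, *mira*, *dpn*, *wor* and *ase* were thus high in 1 of the 2 *Cbp20/Fsn* libraries in which the members were high. They were also high in *Cbp20* library 3, and *mira* alone in Control GD library 2. The mitotic entry sums of those libraries were 50.3 and 44.0 CPM. The part of these markers in the result was not tested.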

How the data were processed

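The members and all gene lists were chosen with earlier results of these data known. The authors used Trimmomatic 0.36 for trimming and TopHat2 2.1.1 for alignment (build 6.08), and deposited raw counts of reads per gene from HTSeq 0.6.1, without normalization, in a column for each sequencing batch. The submitters' notes and the paper do not give the strand setting. Of the 21 libraries, 17 had 3 batches and 4 had 2, and batches were summed. Reads on no gene (10.22% to 14.56% of a library) were left out. The sources state 35 or 40 to 50 heads or flies per replicate.

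Gene symbols were matched for 17253 of 17559 identifiers, and positions come from BDGP6.54, a later annotation. Tests used edgeR 4.0.16 in R 4.3.3 (filterByExpr, TMM, legacy quasi-likelihood fit, 1 coefficient per group, all libraries in 1 model). The tests of the *Fsn* and *dlg1* effects with against without *Cbp20* knockdown were added after seeing the data. The SE is the size of the log2 fold change over the square root of F. DESeq2 1.42.0 was an alternative. The procedure was tested on simulated data. Figures used Python 3.11.15 with matplotlib 3.10.9. Named genes are all called members, members past the FDR and the highest members of each role, and the other cell cycle genes named are the 4 with the lowest FDR. Further genes were chosen after their values were seen. The floor of 3 counts covers counting error only. No sequence is printed, and promoter motifs were not analysed here.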

Additional observations from a re-analysis of the deposited data

Results flagged for a closer look

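The *Fsn* effect differed with and without *Cbp20* knockdown for 2 members in a test of the difference itself. For *RnrL*, the large subunit of ribonucleotide reductase, the log2 difference was 1.93 (SE 0.453, FDR = 0.0131, edgeR quasi-likelihood test). *RnrL* was at 3.82, 3.59 and 4.29 CPM in *Fsn* flies and 4.73, 5.03 and 8.0 CPM in Control GD, whereas *Cbp20/Fsn* libraries 1 and 3 lay above and library 2 within the range of *Cbp20* flies. It was called with each of the 12 libraries left out in turn, with values from 1.39 to 2.28. For *stg* the log2 difference was 2.69 (SE 0.789, FDR = 0.0469, edgeR). *stg* was at 1.78, 2.04 and 1.61 CPM in *Fsn* flies and 2.16, 3.02 and 5.05 CPM in Control GD. Its call held in 3 of the 12 fits with a library left out (without *Cbp20* library 3, *Cbp20/Fsn* library 2 or Control GD library 1), with values from 1.88 to 3.26.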

How the results depend on the processing

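The count of called members in *Cbp20/Fsn* flies was 10 against Control KK and 9 against *Cbp20*. It was 10 and 9 with RLE normalization, 12 and 9 with DESeq2, 14 and 10 with the estimation of edgeR 4, 12 and 9 without the low-count filter, 9 and 12 in the first sequencing batch, and 8 against the control of the other background. With a model of the compared groups alone, the counts were 6 and 2, and lower members were called in *dlg1* (2, *stg* and *fzy*) and *Fsn* flies (4, *CycA*, *CycB*, *pav* and *fzy*). With no fold threshold, the count was 16 against *Cbp20*, 2 in *dlg1*, 4 in *Fsn*, 3 in *Cbp20* and 1 in *Cbp20/dlg1* flies, 3 between the controls and 2 in *Cbp20/dlg1* against *Cbp20*. Leaving out 1 library gave 1 to 28 members against Control KK, 0 to 17 against *Cbp20*, 0 to 1 in *Cbp20/dlg1* against *Cbp20* (*dup*, −1.03, without *Cbp20* library 1, and *mad2*, 1.74, without *Cbp20* library 2), and 0 in the other comparisons. *aurA* kept its call against Control KK in all 15 alternatives (1.36 to 1.97), and against *Cbp20* in 13 of 14, with 0.99 without *Cbp20/Fsn* library 3. No log2 fold change of a called member changed sign in these alternatives. Shares of all genes were counted for the main fit only.

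An alternative chosen after seeing the data kept *Cbp20/Fsn* library 2 as the only library of its group, which is then assumed to vary as the other groups do. Library 2 was already known to lie below Control KK for most members. The signs below therefore follow largely from that choice of library and add no separate evidence. Against Control KK the log2 fold changes reversed for *CycE* (−0.07), *CycA* (−1.28), *CycB* (−2.34), *CycB3* (−0.71) and *Cdk1* (−1.07). They also reversed for *stg* (−0.65), *tum* (−0.99), *mad2* (−0.35) and *lok* (−0.17), while *aurA* stayed higher (0.89). Against *Cbp20* they reversed for *Mcm2* (−0.09), *Mcm5* (−0.02), *PCNA* (−0.43), *RnrS* (−0.04), *CycA* (−1.89), *stg* (−0.68) and *mad2* (−0.53). The cause was not tested.

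On average, libraries with the same replicate number did not deviate together (mean correlation −0.009 over 63 pairs, from −0.283 to 0.353). Of these pairs 12 were above 0.1, and 5 of 21 libraries were closest to their own number. No pairing by number was seen over all groups, but these values cannot settle whether some groups shared handling. With the replicate block, 5 members were called against Control KK (*CycE*, *CycA*, *CycB*, *stg* and *aurA*) and 8 against *Cbp20*.

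With 3 libraries per group and members that vary together between replicates, calls rest on few libraries, and members are not independent of each other. Of the 46 members, 3 had a library under 3 counts, and 20 share exon positions with other genes. *Fsn* and *dlg1* RNA remained at most of its control level.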
